A study of Mus musculus with 20 samples.

Results

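The cytosolic ribosomal protein genes are the genes whose products, with ribosomal RNA, form the large and small subunits of the ribosome in the cytoplasm. Members were chosen by gene symbol alone: Rpl or Rps followed by a number and at most 1 of the letters a, x or l, the stalk genes Rplp0, Rplp1 and Rplp2, and Rpsa. The rule found 81 of the 24421 genes listed, of which 46 belong to the large subunit, 3 to its stalk and 32 to the small subunit. Some proteins of the ribosome have symbols outside the rule (such as Fau, Gnb2l1 and Rps3a1) and are described apart. Among the 81, Rpl3l, Rpl10l, Rpl39l, Rps4l and Rps27l are paralogs of another member.

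RNA was sequenced from bone marrow neutrophils of female mice, with 1 library per mouse and 5 libraries in each of 4 groups. WT mice were purchased C57BL/6J animals, and Bmal1 Mye-/- mice (called KO in the figures) came from a separately bred line with Bmal1 flanked by loxP sites on both alleles and the Cre recombinase at Lyz2, which is active in myeloid cells. The 2 genotypes thus also differed in colony, in the Lyz2 allele and in the chromosomal regions beside the altered loci. Untreated mice of both genotypes were set beside mice that had 5% imiquimod (IMQ) cream, a TLR7/8 agonist used to induce lupus-like disease, on the ears 3 times a week for 6 weeks, starting at 8 to 10 weeks of age. Neutrophils were enriched by magnetic removal of other cells. The study checked their purity by flow cytometry and reported it as high, without a value for each library. Libraries can still hold RNA of several maturation stages and of some other cells.

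Ribosomal proteins are made in near-equal amounts, because 1 copy of nearly every one of them goes into each ribosome. Their mRNAs are abundant in cells that grow and divide, and many begin with a run of C and T bases at the cap, the 5′ terminal oligopyrimidine (TOP) motif, through which mTOR signalling and the RNA-binding protein Larp1 control their translation. Neutrophils stop dividing as they mature in the marrow, and ribosome content falls along that path. In bulk RNA, a change in how many cells of a stage or type a sample holds and a change in RNA per cell cannot be told apart.

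RefSeq promoter sequences were to hand for 60 of the 81 members. Windows around the annotated start are shown for some of the members named in the results, chosen after the sequences had been seen to show long and short runs, because the TOP run is the one sequence feature that the group is known for. Each line gives 30 bases on the transcribed strand of GRCm38, with the longest run of C or T in capitals. The annotated start lies in the middle of each line, and the run can lie on either side of it. In Rpl31, Rpl10a and Rps19 the run lay wholly before the start, so a run in this window is not by itself a TOP motif.
Rpl13a (chr7:45128731-45128760, minus strand): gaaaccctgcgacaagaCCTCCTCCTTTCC
Rplp2 (chr7:141447636-141447665, plus strand): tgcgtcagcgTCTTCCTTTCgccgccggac
Rps6 (chr4:86857353-86857382, minus strand): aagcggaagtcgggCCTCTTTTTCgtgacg
Rpl31 (chr1:39367836-39367865, plus strand): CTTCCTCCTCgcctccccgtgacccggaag
Rps9 (chr7:3704026-3704055, plus strand): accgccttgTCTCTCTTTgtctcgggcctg
Rpl10a (chr17:28328456-28328485, plus strand): gtggcgCCCCCCCagcggccgcaaactgca
Rpsa (chr9:120127751-120127780, plus strand): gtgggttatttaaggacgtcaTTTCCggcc
Rps19 (chr7:24884577-24884606, plus strand): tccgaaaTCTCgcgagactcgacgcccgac
Rpl3l (chr17:24727811-24727840, plus strand): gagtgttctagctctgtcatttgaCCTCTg
In Rpl13a, Rplp2, Rps6 and Rpl31 the run reached 10 or more bases, whereas in the muscle paralog Rpl3l it was 5. The windows of Rpsa and Rps19, members that changed most in the comparison described next, also held short runs. Among the named members not shown, Rpl38 had a run of 10 bases, Rpl13, Rps27 and Rps27l of 9, Rpl39 of 8 and Rpl39l of 7. The run was 6 in Rpl37, 5 in Rplp0, Rpl10l and Rpl36a, 4 in Rpl5, Rpl22 and Rps4x, and 3 in Rpl10, Rpl11 and Rps3.

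A C/T run of 7 or more bases lay somewhere in the 30-base window, on either side of the start, in 30 of 60 members (50%) and in 18.5% of 27025 annotated promoters. The letters CTTTC on the transcribed strand were found from 50 bases before to 50 after the start in 50% of members and 12.6% of all promoters, and CTTTCC, which contains them, in 28.3% and 4.7%. TATAAA on either strand was found in 6.7% of members and 5.2% of all promoters in that window, and in 8.3% and 14.2% over the whole 300 bases. These letters were chosen after the sequences had been seen, and a match is a description and not a shown site.

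Reads counted on genes ranged between 30782166 and 92613500 a library. Of all reads in a library, 51.9% to 57.8% were recorded as lying on no gene, and why was not tested. Reads that aligned to several places, which had not been counted on genes, were 4.37% to 6.5% of reads, and this touches ribosomal protein genes because the genome holds many processed copies of them. This share was 6.5% in the library labelled Bmal1 Mye-/- IMQ replicate 1, 6.34% in WT IMQ replicate 3 and 5.75% in Bmal1 Mye-/- IMQ replicate 5, the 3 libraries with the largest shares of counts on members, and 4.37% to 5.12% in the other 17. Its part in the results was not tested. Of the members' own 50-base stretches, between 4.9% (Rpl35) and 100% occurred in no transcript of another annotated gene. The median level was 88.1 CPM per kilobase in the 52 members with 50% or more such stretches and 119 in the 26 with less. Rps4l had no value in this count. On the scale of CPM, which are counts scaled to a library's gene total and adjusted by edgeR's TMM factors, the 10 neutrophil genes summed to 71355 to 159593 CPM per library, the monocyte and macrophage genes to 660 to 2096 CPM, the early granulocyte genes to 112 to 1668 CPM, the erythroid genes to 18.7 to 324 CPM and the eosinophil, basophil and mast cell genes to 19.7 to 189 CPM. The progenitor genes summed to 10.5 to 37.1 CPM, the B lineage genes to 4.88 to 26 CPM and the T and NK genes to 6.04 to 24.4 CPM, and the 4 globin genes were listed at 0.

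The targeted gene, listed as Arntl, was at 0.895 to 1.71 CPM in untreated WT, 0.468 to 1.1 in untreated Bmal1 Mye-/-, 0.562 to 1.87 in IMQ-treated WT and 0.337 to 1.52 in IMQ-treated Bmal1 Mye-/- libraries. The genotypes overlapped, and the library labelled Bmal1 Mye-/- IMQ replicate 1, at 1.52, was above 4 of the 5 IMQ-treated WT libraries. The count covers the whole gene, including parts that Cre does not remove, so it did not check the labels.

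The first measure was the share of each library's gene counts that lay on members. In untreated WT mice the 5 libraries held 0.733%, 0.910%, 0.899%, 0.661% and 0.726% (0.786% ± 0.112, SD, n = 5), and in untreated Bmal1 Mye-/- mice 0.786%, 0.771%, 0.742%, 0.700% and 0.815% (0.763% ± 0.0441, SD, n = 5). After IMQ the WT libraries held 0.791%, 0.967%, 2.12%, 0.639% and 0.617% (1.03% ± 0.626, SD, n = 5). The Bmal1 Mye-/- libraries after IMQ held 2.30%, 1.12%, 1.19%, 0.990% and 1.56% (1.43% ± 0.529, SD, n = 5). All 5 IMQ-treated Bmal1 Mye-/- libraries were thus above all 5 untreated ones, whereas in WT only replicate 3 stood far above the untreated libraries and replicates 4 and 5 lay below them. Counts on large subunit and stalk members were 1.1 to 1.25 times those on small subunit members in the 20 libraries.

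**Figure D1:**
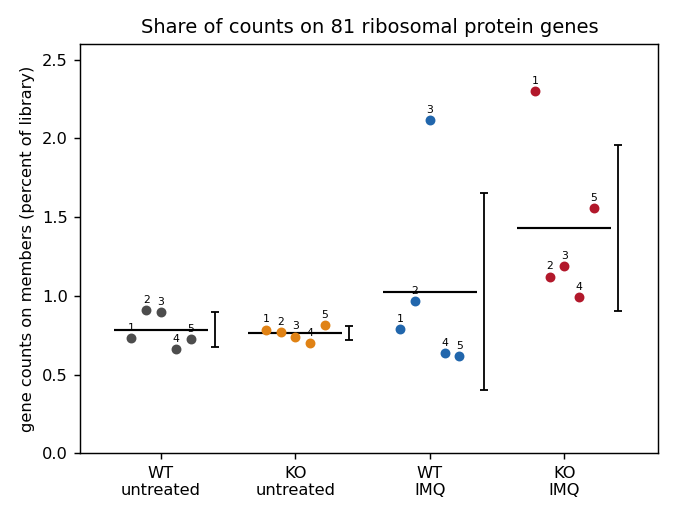
Percent of each library's gene counts on the 81 ribosomal protein genes (vertical axis) in the 4 groups, with points numbered by replicate, horizontal lines for means and bars for the SD of 5 libraries. All IMQ-treated KO libraries (0.990% to 2.30%) sit above the untreated ones, and WT IMQ replicate 3 (2.12%) stands alone in its group.

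Levels differed widely between members on the scale of CPM divided by exon length in kilobases. Rps9, a small subunit protein, was highest at 441 CPM per kilobase over the 20 libraries, followed by the stalk genes Rplp1 at 345 and Rplp0 at 323. These ranks also depend on the exon length in the annotation and on how many of a gene's reads align to 1 place. At the other end, Rpl3l, a paralog known from heart and skeletal muscle, was at 1.45, Rpl30 at 0.791 and Rpl39l, a paralog known from the testis, at 0.260. Rpl10l, also a testis paralog, was listed at 0 in all libraries, and Rpl26 had at most 1 count in a library. Both were left untested, which left 79 members. Rpl26, Rpl30, Rpl34 (1.66) and Rps27 (4.68) encode proteins of every ribosome, and why their counts were low was not tested. Rps27 has a near-identical processed copy, Rps27rt, with a row of its own in the files, so that its level is uncertain.

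Treatment with IMQ in Bmal1 Mye-/- mice was the comparison in which edgeR, with all libraries, called ribosomal protein genes. Of the 79 tested members, 61 rose and none fell at an adjusted p under 0.05 (edgeR quasi-likelihood test, Benjamini-Hochberg adjustment over 14030 genes), where 14.4% of all tested genes rose and 9.04% fell. The rise covered both subunits: 32 of 44 large subunit members, 2 of 3 stalk members and 27 of 32 small subunit members were called. The median log2 fold change was 0.74 over the members and 0.02 over all genes tested, and the called members ran from 0.42 (Rps13, 1.34-fold) to 1.40 (Rpsa, 2.64-fold). In 68 members the 5 IMQ-treated libraries all lay above the 5 untreated ones, which held for 10.8% of all genes, and in none did they all lie below (9.31% of all genes).

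The 4 members with the largest rise were Rpsa, Rps20, Rps19 and Rpl10a. Rpsa, a small subunit protein also known as the laminin receptor, was at 128, 122, 115, 96.2 and 147 CPM in untreated Bmal1 Mye-/- libraries and at 456, 247, 276, 238 and 393 after IMQ. The groups did not overlap, and the log2 fold change was 1.40 with a standard error of 0.36 (edgeR adjusted p = 0.0138). Rps20, a protein of the small subunit head, was at 62.9, 60.2, 52.6, 46.2 and 66.1 CPM before and 211, 115, 121, 108 and 181 after IMQ, again without overlap (log2 fold change 1.35, standard error 0.33, edgeR adjusted p = 0.0113).

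Rps19, the gene most often altered in Diamond-Blackfan anaemia, was at 46.3, 48.1, 44.6, 36.3 and 46.6 CPM in untreated Bmal1 Mye-/- libraries and at 153, 81.3, 101, 83.8 and 133 in treated ones. Every treated library exceeded every untreated one, with a log2 fold change of 1.31 (standard error 0.31, edgeR adjusted p = 0.00955). Rpl10a, a large subunit protein, was at 31.7, 28.8, 24.4, 24.1 and 35.6 CPM before and 123, 49, 55.6, 46.5 and 81.1 after IMQ (log2 fold change 1.29, standard error 0.40, edgeR adjusted p = 0.0282). In all 4 genes replicates 1 and 5 were the highest of the treated libraries, and leaving out replicate 1 ended the call of Rpl10a (log2 fold change 1.01, edgeR adjusted p = 0.0794) but not those of Rpsa, Rps20 and Rps19 (1.25, 1.2 and 1.18 on the log2 scale). Over 21 alternative fits, Rpl10a lost the call in 7, and Rpsa, Rps20 and Rps19 lost it in none. Rpl10a and Rpl36a were also the members that varied most about their group means, with SDs of 0.64 and 0.60 on the log2 scale.

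**Figure D2:**
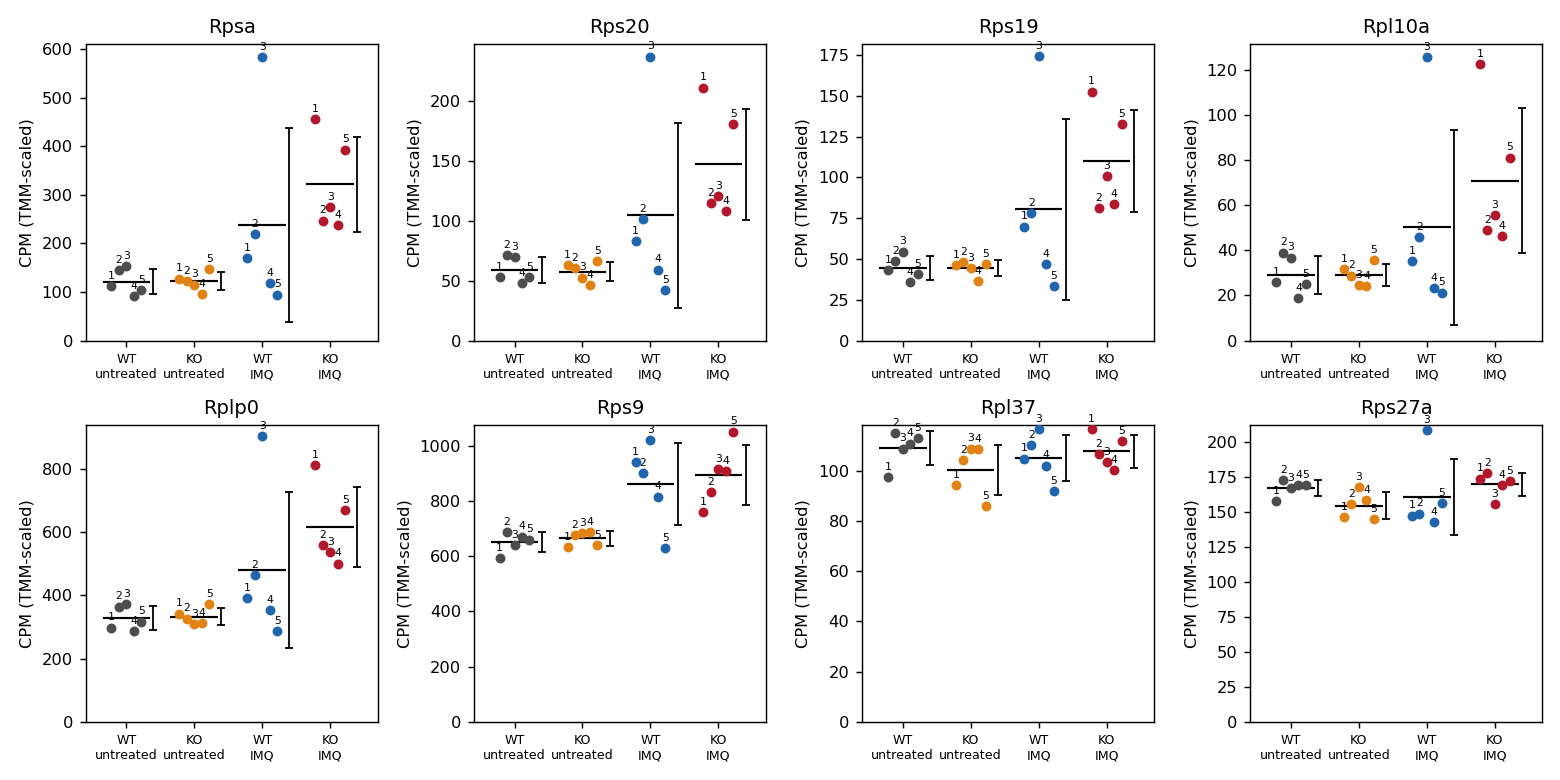
CPM (TMM-scaled, vertical axes from 0) of 8 members in each library, with points numbered by replicate, horizontal lines for group means and bars for the SD of 5 libraries. Rpsa, Rps20, Rps19, Rpl10a and Rplp0 are higher in every IMQ-treated KO library than in any untreated KO library and reach their highest value in WT IMQ replicate 3, whereas Rpl37 and Rps27a stay within overlapping ranges.

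The stalk genes encode the acidic proteins that recruit elongation factors to the large subunit. Rplp0, their base on the ribosome, was at 342, 327, 310.2, 312 and 373 CPM in untreated Bmal1 Mye-/- libraries and at 813, 558, 538, 501 and 669 after IMQ. It rose with a log2 fold change of 0.89 (standard error 0.23, edgeR adjusted p = 0.0130). Rplp2 rose as well, from 98.1, 102, 96.2, 87.2 and 97.2 CPM to 208, 119, 152, 138 and 183 CPM (log2 fold change 0.74, standard error 0.21, edgeR adjusted p = 0.0191). Rplp1 did not pass: its treated libraries, at 364, 192, 176, 178 and 230.0 CPM, were above the untreated 128 to 147 CPM, and replicate 1 was far from the others (log2 fold change 0.72, standard error 0.29, edgeR adjusted p = 0.0747).

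Among large subunit proteins with a named role, Rpl5 and Rpl11 join the 5S ribosomal RNA and can bind Mdm2, the ligase that degrades p53. Rpl5 ranged from 30.6 to 39.5 CPM in untreated and from 45 to 86.4 CPM in treated Bmal1 Mye-/- libraries (log2 fold change 0.76, edgeR adjusted p = 0.0366). Rpl11 ranged from 62.5 to 67.5 and from 81.5 to 135 CPM (log2 fold change 0.61, edgeR adjusted p = 0.0371). Both genes were higher in each treated library than in any untreated one, and both lost the call without replicate 1 (log2 fold changes of 0.63 and 0.49, edgeR adjusted p = 0.0903 and 0.0910). Over 21 alternative fits, Rpl5 lost the call in 7 and Rpl11 in 8.

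Rpl22, whose loss is known to impair lymphocyte development, rose by 0.96 on the log2 scale, from 30.8 to 40.7 CPM in untreated to 48.5 to 113 CPM in treated libraries. Rpl39, a small protein at the exit tunnel, rose by 1.02, Rpl13a, also known from an interferon-gamma response that represses translation, by 0.82, Rpl38, known for selective translation in the embryo, by 0.76, and Rpl10, the protein added late to the large subunit, by 0.57. Their edgeR adjusted p-values ran from 0.0123 (Rpl39) to 0.0238 (Rpl10), and all but Rpl39 lost the call without replicate 1. The log2 fold changes were then 0.73 for Rpl22, 0.70 for Rpl13a, 0.66 for Rpl38 and 0.42 for Rpl10, with edgeR adjusted p-values of 0.0609, 0.05001, 0.0507 and 0.0603. Rpl3, which reaches towards the peptidyl transferase centre, missed the threshold at a log2 fold change of 0.99 (edgeR adjusted p = 0.0533), with libraries of 248, 96.2, 118, 85.7 and 144 CPM after IMQ against 55.1 to 85.4 CPM before. Its lowest treated library lay just above its highest untreated one. Over 21 alternative fits Rpl3 gained the call in 8, with log2 fold changes of 0.68 to 1.19.

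Among small subunit proteins, Rps6, the ribosomal substrate of S6 kinase, was at 55.2, 56.1, 54.5, 49.3 and 56.9 CPM before and 133, 78.1, 93.4, 79.5 and 118 CPM after IMQ, without overlap (log2 fold change 0.88, standard error 0.24, edgeR adjusted p = 0.0157). Rps3 at the mRNA entry channel, X-linked Rps4x and Rps14, the gene lost in the 5q- syndrome of humans, rose by 0.74, 0.88 and 0.65 on the log2 scale, with edgeR adjusted p-values of 0.0189, 0.0160 and 0.0109. Rps9 rose less, by 0.43 (standard error 0.12, edgeR adjusted p = 0.0163), from 635, 678, 685, 689 and 640.0 CPM to 760.1, 834, 917, 909 and 1053 CPM. The smallest adjusted p among members was 0.00651, in Rps24.

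Not all members moved. Of the 18 that were not called, 15 had a positive log2 fold change and 7 had no overlap between groups, with adjusted p-values from 0.0512 (Rpl15) to 0.886 (Rpl3l). Rpl37 was at 94.5, 104, 109, 109 and 86.2 CPM in untreated and 117, 107, 104, 100.4 and 112 CPM in treated Bmal1 Mye-/- libraries, which overlapped (log2 fold change 0.10, 95% interval −0.06 to 0.27). Rps27a, which encodes ubiquitin fused to a small subunit protein, was at 145 to 168 CPM before and 156 to 178 CPM after IMQ (log2 fold change 0.14, 95% interval −0.05 to 0.32). Both intervals lie below the median change of the members.

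The 3 members with a negative value were low in all libraries. Rps27 was at 1.75 to 3.67 CPM in untreated and 1.28 to 2.08 CPM in treated Bmal1 Mye-/- libraries (log2 fold change −0.48, edgeR adjusted p = 0.107). Rpl30, under 1.2 CPM everywhere, and Rpl3l gave −0.07 and −0.06, and in Rpl3l the library labelled replicate 1 was lowest at 0.688 CPM. Of the other paralogs, Rps27l, a target of p53, was at 37.2, 18.2, 16.7, 15.1 and 16.7 CPM after IMQ against 13 to 15.1 CPM before (log2 fold change 0.55, edgeR adjusted p = 0.0906), so that 1 library carried most of its difference. Rps4l overlapped (log2 fold change 0.30, edgeR adjusted p = 0.291), and Rpl39l had a CPM of 0.0779 to 1.06 after IMQ, near the limit of what was counted.

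The change with treatment was set beside these sequence features. With IMQ in Bmal1 Mye-/- mice, the median log2 fold change over members with a C/T run of 7 or more bases was 0.75 (23 of 30 called) and over those with a shorter run 0.74 (23 of 28 called). The 26 members with less than 50% unique stretches had a median of 0.82 and the 52 with more had 0.71, with 21 and 40 called.

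Leaving out 1 library moved the number of called members: it was 39 without the library labelled Bmal1 Mye-/- IMQ replicate 1 and 40 without untreated Bmal1 Mye-/- replicate 4, all of them among the 61, where 9.93% and 7.10% of all genes rose. The median stayed at 0.63 and 0.72.

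**Figure D3:**
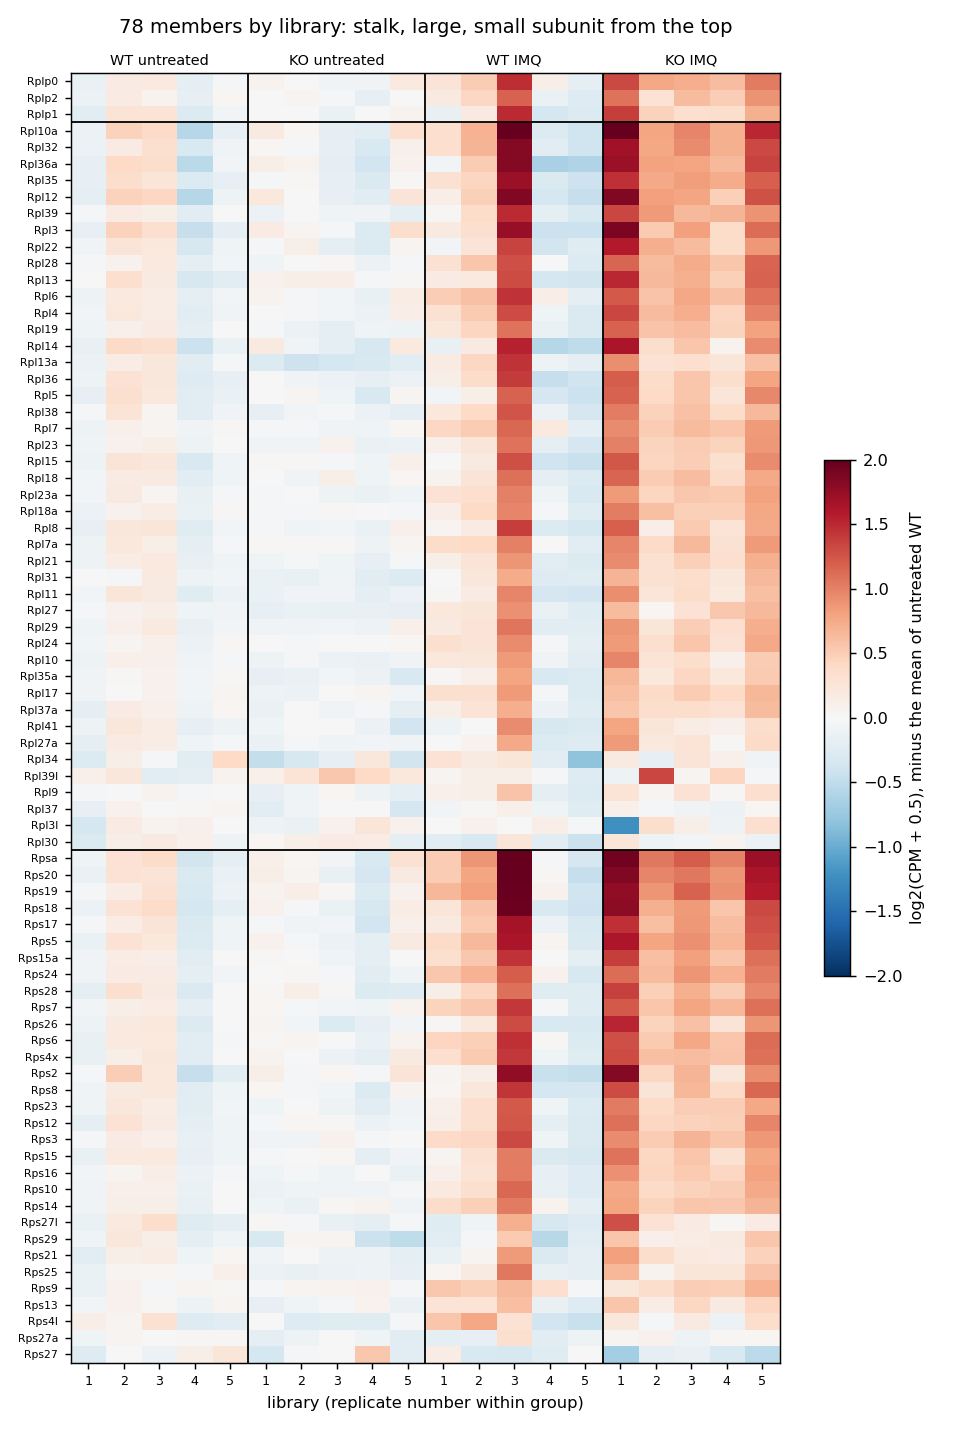
Difference of log2(CPM + 0.5) from the mean of untreated WT (colour, limited to 2 in both directions) for 78 of the 79 tested members in rows, ordered by their change with IMQ in KO within stalk, large and small subunit, and the 20 libraries in columns. Red fills most rows of the 5 KO IMQ columns and of WT IMQ replicate 3, and Rpl37, Rps27a and the low members Rps27, Rpl30 and Rpl3l are among the rows that stay pale or turn blue there.

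In WT mice, IMQ gave no call among the members. None of the 79 passed in edgeR, where 2.34% of all genes rose, 1.6% fell and 3.95% were called in either direction, and 2 passed in DESeq2. At an unadjusted p under 0.05 there were 18 members, beside 22.3% of all genes. The median log2 fold change was 0.34 over members and 0.03 over all genes, 71 members were positive beside 53.2% of all genes, and in no member did the 5 treated libraries lie wholly above or below the untreated ones (3.11% of all genes lay above and 3.31% below).

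The treated WT libraries disagreed with each other. Replicate 3 was the highest of the 5 in 75 of 79 members and above all untreated WT libraries in 74, at a median of 2.22 times the untreated mean. Replicates 1 and 2 were above all untreated libraries in 31 and 57 members (medians of 1.11 and 1.25 times), while replicates 4 and 5 were below all of them in 32 and 66 members (0.877 and 0.818 times). In the Bmal1 Mye-/- group, each of the 5 treated libraries was above all untreated ones in 68 to 75 members, with medians of 1.36 to 2.21 times.

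Rps9 and Rpl7 had the smallest p-values in WT. Rps9 was at 594, 689, 640.3, 672 and 661 CPM in untreated WT and at 941, 903, 1023, 817 and 631 CPM after IMQ, so that replicate 5 kept the groups from separating (log2 fold change 0.41, standard error 0.12, edgeR adjusted p = 0.0523). Rpl7, a large subunit protein, ranged from 147 to 169 CPM before and was at 211, 225, 352, 182 and 139 CPM after IMQ (log2 fold change 0.48, standard error 0.17, edgeR adjusted p = 0.0943). Rpsa was at 112, 146, 153, 92.1 and 104 CPM before and 170.4, 219.8, 584, 118 and 94.6 CPM after, and its log2 fold change of 0.97 had a standard error of 0.36 (edgeR adjusted p = 0.118). Replicates 1, 2 and 3 were above the untreated range and replicates 4 and 5 within it.

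Most of these WT values moved with single libraries. Without WT IMQ replicate 3 the median over members was 0.02, Rps9 was at 0.33, Rpl7 at 0.25 and Rpsa at 0.30, Rplp0 fell from 0.55 to 0.18, and 9 of the named members changed sign, among them Rplp1 (0.35 to −0.16), Rpl5 (0.21 to −0.18) and Rpl36a (0.51 to −0.17). Without WT IMQ replicate 5, 17 members passed, all higher, where 7.55% of all genes rose, and Rps9, Rpsa, Rps19 and Rpl7 were among them.

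**Figure D4:**
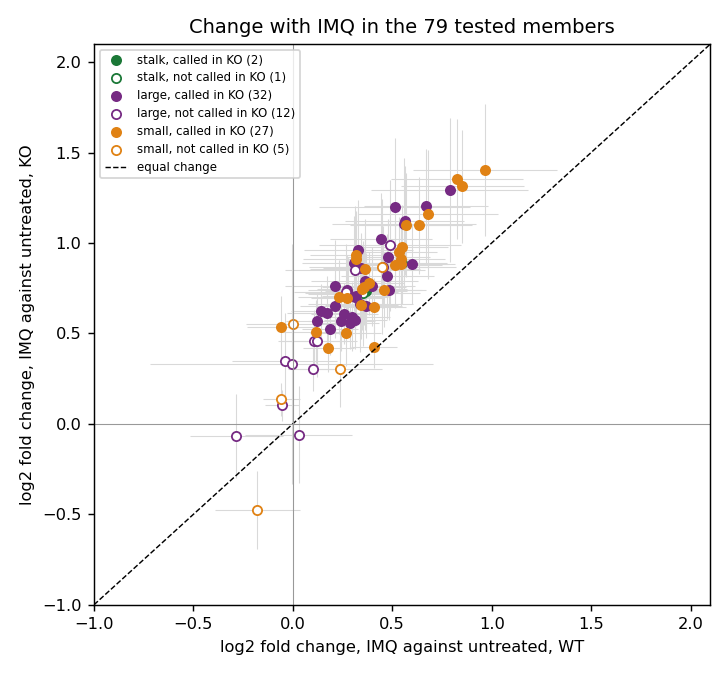
Log2 fold change with IMQ in WT (horizontal) and in KO (vertical) for each of the 79 tested members, with grey bars of 1 standard error, colours for stalk, large and small subunit, filled points for members called in KO and a dashed line of equal change. Nearly all points lie above the line, with medians of 0.34 in WT and 0.74 in KO, and no member was called in WT.

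Whether the response to IMQ differed between genotypes was tested by the interaction term. No member passed, as no gene of all 14030 did, with a lowest adjusted p among members of 0.640, and DESeq2 called no member either. At an unadjusted p under 0.05 there were 2 members, Rps29 and Rpl31, beside 5.14% of all genes. The median interaction was 0.40 on the log2 scale and 77 of 79 members were positive, beside 51.2% of all genes. Rps29, a small subunit protein, was at 46.4, 59.9, 59.7, 42.9 and 40.2 CPM in untreated and 84.7, 62.1, 64.2, 65.1 and 84.8 CPM in treated Bmal1 Mye-/- libraries, whereas in WT it was at 51 to 67.3 and at 39 to 83.5 CPM. Its interaction was 0.59 (standard error 0.24, edgeR adjusted p = 0.640), and that of Rpl31, a large subunit protein, was 0.48 (standard error 0.21, edgeR adjusted p = 0.640). The rise in Bmal1 Mye-/- mice is thus not shown to be larger than in WT mice.

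Between genotypes without treatment, no member was called in edgeR or DESeq2, beside 0.207% of all genes called in edgeR, and none had an unadjusted p under 0.05, beside 2.19% of all genes. The median log2 difference of Bmal1 Mye-/- from WT was −0.06. Rpl13a and Rpl27 were the 2 members whose Bmal1 Mye-/- libraries all lay below WT, beside 0.727% of all genes. Rpl13a was at 238, 287, 303, 225 and 252 CPM in WT and 214, 194, 204, 209.6 and 222 CPM in Bmal1 Mye-/- mice (log2 difference −0.32, standard error 0.23, edgeR adjusted p = 1.00). Rpl27, a large subunit protein that falls outside the rule for named genes and was chosen after its values were seen, was at 32.9 to 37.6 CPM in WT and 31 to 31.8 CPM in Bmal1 Mye-/- mice (log2 difference −0.16, standard error 0.17, edgeR adjusted p = 1.00). The 2 members with the smallest p were Rpl39l, at 0.0367 to 0.227 CPM in WT and 0.167 to 0.404 in Bmal1 Mye-/- (log2 difference 1.09, standard error 0.69), and Rpl37, at 97.5 to 115 and 86.2 to 109 CPM (log2 difference −0.12, standard error 0.08). On chromosome 7, which carries Arntl, the 14 tested members had log2 differences of −0.32 to 0.03.

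After IMQ, 76 of 79 members were higher in Bmal1 Mye-/- than in WT mice, beside 53.1% of all genes, with a median log2 difference of 0.35. None was called in edgeR or DESeq2, where edgeR called 0.292% of all genes, and 6 had an unadjusted p under 0.05, beside 19.9% of all genes. No member had groups without overlap, beside 0.627% of all genes that lay above and 0.442% that lay below. Rpl13, a large subunit protein, was at 109.9, 112, 243, 77 and 76.3 CPM in WT and 281, 155, 162, 137 and 223 CPM in Bmal1 Mye-/- mice (log2 difference 0.63, standard error 0.26, edgeR adjusted p = 0.230). WT replicate 3 lay within the Bmal1 Mye-/- range of Rpl13 and the other 4 WT libraries lay below it.

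This comparison turned on that library. Without WT IMQ replicate 3, 69 of 79 members were called higher in Bmal1 Mye-/- mice, where 13.5% of all genes were, with a median of 0.64, and Rpsa, Rpl13 and Rps19 had log2 differences of 1.10, 1.04 and 0.96 (edgeR adjusted p = 0.0136, 0.0119 and 0.0149). When the library labelled Bmal1 Mye-/- IMQ replicate 1 was left out too, 65 members were called, where 5.45% of all genes were higher. The interaction called no member in either fit, with lowest adjusted p-values of 0.128 and 0.158.

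Other genes of the translation machinery were set beside the members after IMQ in Bmal1 Mye-/- mice, where 14.4% of all genes rose and 9.04% fell. Of the 7 ribosomal proteins and close relatives outside the rule, 4 rose, among them Gnb2l1, the scaffold protein Rack1 (log2 fold change 1.01), Rps3a1 (0.69) and Rpl36al (0.86), whereas Fau was at 0.01. Of 18 elongation factors and other known TOP mRNAs, 13 rose and none fell, led by Nap1l1, a histone chaperone (1.12), and Eif3e, a subunit of an initiation factor (0.95), with Eef1a1, which brings tRNA to the ribosome, at 0.91. The TOP-containing non-coding RNA Gas5 was at −0.30 (edgeR adjusted p = 0.161). The median of these 18 was 0.58, beside 0.02 over all genes.

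Of 40 factors for ribosomal RNA synthesis and assembly, 2 rose (5%, beside 14.4% of all genes) and none fell, and the median log2 fold change was 0.45. The 2 were Sdad1 (1.47) and Ltv1 (0.79), the latter needed to export the small subunit. Sdad1 was at 30.8, 10.7, 7.58, 4.54 and 7.55 CPM after IMQ against 2.58 to 6.36 before. Its groups thus overlapped, and the library labelled replicate 1 was far above the others. Fbl, the methyltransferase fibrillarin, and Npm1, nucleophosmin, had log2 fold changes of 0.68 and 0.94 without passing (edgeR adjusted p = 0.247 and 0.0797). Of 74 mitochondrial ribosomal protein genes, which serve translation inside mitochondria, 15 rose (20.3%, beside 14.4% of all genes) and none fell, with a median of 0.45, led by Mrpl54 (1.03) and Mrps26 (0.75).

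Of 18 regulators, 4 rose (22.2%, beside 14.4% of all genes) and 1 fell (9.04% of all genes did). Cdkn1a, the cell cycle inhibitor p21 and a target of p53, rose by 2.09 on the log2 scale, and Larp1, the TOP-binding protein, by 0.99, from 53.6, 51.2, 50.5, 36 and 61.4 CPM to 152, 68.2, 97.1, 96.9 and 86.8 CPM. Eif6, an anti-association factor of the large subunit (0.59), and Rheb, the activator of mTOR (0.30), rose as well, and Eif4ebp2, a repressor of cap-dependent translation, fell by 0.39. Myc and Mtor had log2 fold changes of 0.40 and 0.06 (edgeR adjusted p = 0.519 and 0.610). In WT mice, 1 of 74 mitochondrial genes (Mrps25, 0.36) and 1 of 18 regulators (Cdkn1a, 1.83) rose, beside 2.34% of all genes. None of the elongation, assembly or outside-rule genes was called there. Cdkn1a was the sole gene of these lists called with IMQ in both genotypes.

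Genes of other kinds moved with the ribosomal protein share. The 5 proliferation genes Mki67, Top2a, Ccnb1, Cdk1 and Birc5 all rose with IMQ in Bmal1 Mye-/- mice (log2 fold changes 1.69 to 1.99), where 14.4% of all genes rose. Their summed level was 242 to 447 CPM in untreated and 828 to 1954 CPM in IMQ-treated Bmal1 Mye-/- libraries, and 314 to 498 CPM in untreated WT. In IMQ-treated WT it was 779, 863, 1724, 438 and 320 CPM, and, as for Rpsa, replicate 3 was highest and replicate 5 lowest.

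Of 10 neutrophil genes, Csf3r, the G-CSF receptor of maturing neutrophils, fell by 1.38 with IMQ in Bmal1 Mye-/- mice and the other 9 were not called. In this comparison 9.04% of all genes fell. Csf3r was lowest in the libraries with the largest ribosomal protein shares: 409 CPM in WT IMQ replicate 3 and 476 and 529 CPM in those labelled Bmal1 Mye-/- IMQ replicates 1 and 5, beside 1058 to 3166 CPM in the other 17. The summed neutrophil genes were at 101311, 71355 and 107577 CPM in these 3 libraries and at 125992 to 159593 CPM elsewhere. None of the 5 early granulocyte genes (Mpo, Elane, Prtn3, Ctsg and Ms4a3) was called, with log2 fold changes of 0.14 to 1.13 and sums of 112 to 1668 CPM in the 20 libraries. Of other cell types, Ccr2 and F13a1 of 8 monocyte and macrophage genes rose (2.30 and 2.12), where 14.4% of all genes rose. Ccr2 was at 416, 106, 35.8, 43 and 25.4 CPM in treated Bmal1 Mye-/- libraries against 16.8 to 43 before, and F13a1 at 681, 239.7, 49.4, 96 and 61.1 against 36.2 to 85.4. Replicates 1 and 2 held the highest values, the groups overlapped in both genes, and the sum of the 8 genes was 2096, 1186, 807, 1140 and 660 CPM after IMQ and 812 to 977 CPM before. Of these 8 genes, 6 had a positive and 2 a negative log2 fold change. Csf1r, not called, was at 217, 143, 36, 88.7 and 12.3 CPM after IMQ against 194 to 223 before. Adgre1, also not called, was at 44.4, 30.6, 9.89, 11 and 4.18 against 28 to 43. In the same comparison 3 of 8 B lineage genes and 1 of 4 T and NK genes fell, beside 9.04% of all genes. Of 6 eosinophil, basophil and mast cell genes Ms4a2 rose and Siglecf fell. Of these 6, 5 had a positive log2 fold change, beside 51.8% of all genes, and the median was 1.13. Siglecf was the 1 with a negative value. None of 4 erythroid and 4 progenitor genes was called. In WT mice IMQ raised the erythroid gene Alas2 and lowered the eosinophil gene Prg2 (2.76 and −1.74 on the log2 scale), and no other marker gene was called. There 2.34% of all genes rose and 1.6% fell. After IMQ, Prg2 and Epx were higher in Bmal1 Mye-/- than in WT mice (2.54 and 2.97), beside 0.185% of all genes. The part of maturation stage, proliferation or other cells in the ribosomal protein differences was not tested.

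**Figure D5:**
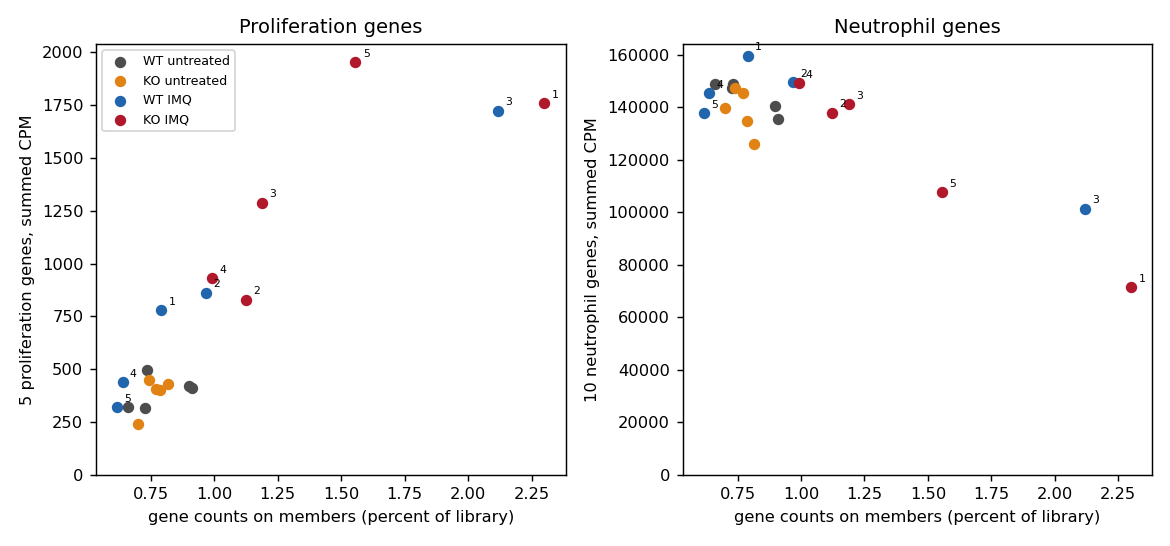
Summed CPM of 5 proliferation genes (left) and 10 neutrophil genes (right) against the percent of gene counts on ribosomal protein genes, 1 point per library, coloured by group, with replicate numbers beside IMQ-treated libraries. WT IMQ replicate 3 and KO IMQ replicates 1 and 5 hold the 3 largest shares, the 3 highest proliferation sums (1724, 1758 and 1954 CPM) and the 3 lowest neutrophil sums.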

How the data were processed

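The labels and the study's methods describe poly(A) libraries sequenced on NovaSeq and NextSeq instruments, which are not assigned to libraries. The submitters' processing notes name STAR 2.7.8a, HTSeq 2.0.1 and mm10, whereas the methods name TopHat, and the strand setting is not given in the sources used here. The deposited values are whole-number counts of reads per gene, without normalization.

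Counts were analysed with edgeR 4.0.16 (R 4.3.3): filterByExpr with a minimum count of 10 left 14030 of 24421 genes, TMM factors were 0.854 to 1.38, and 1 quasi-likelihood model with 4 group means gave 5 contrasts, adjusted by Benjamini-Hochberg over all tested genes (threshold 0.05). Intervals are 1.96 standard errors. DESeq2 1.42.0 and limma 3.58.1 were alternatives. On simulated counts, 50.8% of 197 genes changed 2-fold in IMQ-treated Bmal1 Mye-/- libraries were recovered among 13789 genes. Exon lengths and unique stretches came from GENCODE M21, promoters from RefSeq (GRCm38.p6).

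Named members were, per contrast, the 4 called with the largest change in each direction or else the 2 with the smallest p, 19 chosen by role, the paralogs, the 3 highest and lowest per length, and the 2 most variable. Others are named by their value, and some genes are not reported here. From the other lists, up to 2 called genes in each direction follow the rule, and further names were chosen after their values were seen. The members and lists were chosen with earlier results of these data known.

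Same-numbered untreated and IMQ-treated Bmal1 Mye-/- libraries deviated together from their group means (correlations of 0.190 to 0.408 over genes). In WT the correlations were 0.0734 to 0.579, with 3 of 5 over 0.1. The labels give only a number, and libraries with different numbers were not compared in this way. A pairing is therefore not known, and the main model did not pair libraries. Pairs of replicates differed by more than sampling noise (chi-square per degree of freedom 16.9 to 731 over 40 pairs). P-values measure the spread between these libraries, each from 1 mouse.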

Additional observations from a re-analysis of the deposited data

Results flagged for a closer look

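In 140 groups of 5 libraries (35 measured values in 4 groups), 18 had a highest library whose gap to the next was above Dixon's 95% critical value of 0.71 times the group's range. For normally distributed values, chance gives such a gap at either end in about 1 in 20 groups, and at the upper end alone less often. The values are not independent, because members move together within a library.

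Most of them were WT IMQ replicate 3. Its share of counts on members was 2.12%, with the other 4 libraries at 0.617% to 0.967%. The same library stood apart at 584 CPM for Rpsa (others 94.6 to 219.8), 126 for Rpl10a (21.2 to 45.9), 243 for Rpl13 (76.3 to 112), 905 for Rplp0 (287 to 465), 394 for Rplp1 (109 to 159) and 86.2 for Rpl5 (27.9 to 41.2). It was also apart at 223 CPM for Rpl3, 706 for Rpl13a, 96.4 for Rpl22, 58.1 for Rpl39, 208 for Rps27a, 24.7 for Rps27l, 1.16 for Rpl30 and 59 for Rpl36a. Its summed proliferation genes were at 1724 CPM and its summed neutrophil genes at 101311 CPM, and their part in these values was not tested.

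The library labelled Bmal1 Mye-/- IMQ replicate 1 stood apart for Rplp1 at 364 CPM (others 176 to 230.0) and for Rps27l at 37.2 CPM (15.1 to 18.2). For Rpl39l, Bmal1 Mye-/- IMQ replicate 2 was at 1.06 CPM beside 0.0779 to 0.338 in the others.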

How the results depend on the processing

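The number of members called with IMQ in Bmal1 Mye-/- mice was 61. Over the alternatives that kept all libraries it ranged from 42 (limma on log2 of CPM plus 0.1, where 10.7% of all genes rose) to 70 (only the 2 groups compared, 14.8%), with 64 in DESeq2 (16.7%). With 1 library of these 2 groups left out it ranged from 39 (without the library labelled IMQ replicate 1, 9.93%) to 67 (without IMQ replicate 4, 17.3%). It was 71 (19.2%) without WT IMQ replicate 3, a library outside this comparison but in the same model. Other ranges with 1 library left out are likewise over the groups compared. In WT mice the number was 0, but 2 with DESeq2 (5.55% of all genes rose), and 0 to 17 when 1 library was left out, the highest without replicate 5 (7.55%). Between genotypes after IMQ it was 0, but 0 to 69 when 1 library was left out, the highest without WT IMQ replicate 3 (13.5%), and 65 without both libraries of highest share (5.45%), an alternative chosen after seeing the data. For the genotypes without treatment and the interaction it was 0 in all fits run. Median log2 fold changes without 1 library were 0.63 to 0.81 with IMQ in Bmal1 Mye-/-, 0.02 to 0.46 in WT, 0.23 to 0.64 between genotypes after IMQ, −0.12 to −0.01 without treatment and 0.29 to 0.72 for the interaction.

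With the replicate number as a block, 62 members were called with IMQ in Bmal1 Mye-/- mice, where 13.3% of all genes rose, and 0 in each other comparison. It moved no count by over 1.5 times, and a fit of the 2 Bmal1 Mye-/- groups alone with the block, chosen after seeing the data, gave 67 (13.9%). The block turned Rpl39l in Bmal1 Mye-/- to −0.10, and with those groups alone to −0.22. Same-numbered libraries of the 2 genotypes correlated at −0.450 to 0.409 untreated and −0.536 to 0.346 after IMQ, so there they share only a number.

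Without TMM factors the median of all genes shifted to 0.16 with IMQ in Bmal1 Mye-/- and to 0.23 between genotypes after IMQ. The members' medians were 0.90 and 0.52 there, and Rpl3l turned to −0.029 in WT and 0.019 in Bmal1 Mye-/-, and Rpl30 to 0.085 in Bmal1 Mye-/-. With limma, Rpl3l in WT was −0.019, and Rpl39l and Rpl30 in Bmal1 Mye-/- were −0.035 and 0.041. With the 10 genes of most counts left out of the total, the mean share was 0.943% in untreated WT and 0.903% in untreated Bmal1 Mye-/- mice.

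Depth limited Rpl39l, which had at most 46 counts in a library. Values of several named members, not only those with low levels, turned sign when 1 library was left out. In WT, log2 fold changes then ranged from −0.067 to 0.068 for Rpl3l, −0.25 to 0.31 for Rpl39l, −0.26 to 0.093 for Rps27l and −0.26 to 0.033 for Rps29. They ranged from −0.10 to 0.43 for Rpl13, −0.062 to 0.22 for Rpl31, −0.16 to 0.48 for Rplp1, −0.18 to 0.33 for Rpl5, −0.13 to 0.28 for Rpl11, −0.095 to 0.65 for Rpl3, −0.11 to 0.45 for Rpl22, −0.021 to 0.58 for Rpl39 and −0.17 to 0.70 for Rpl36a, each lowest without replicate 3. In Bmal1 Mye-/- mice the ranges were −0.18 to 0.19 for Rpl3l and −0.65 to 0.60 for Rpl39l. Without both libraries of highest share the WT values were −0.10 for Rpl13, −0.065 for Rpl31, −0.16 for Rplp1, −0.19 for Rpl5, −0.13 for Rpl11, −0.097 for Rpl3, −0.11 for Rpl22, −0.024 for Rpl39 and −0.17 for Rpl36a, and Rpl3l in Bmal1 Mye-/- was 0.20. Over the named members and all alternatives, 49 results lost a call and 28 gained one.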
